A study of Mus musculus with 13 samples.

Results

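The genes that copy DNA and supply its building blocks were examined as a set of 51 members in mouse small intestinal epithelium and intestinal adenomas. The set holds 15 genes of origin recognition and licensing, 6 of helicase activation, 9 of the polymerases and primase, and 9 of the sliding clamp, clamp loader and single-strand binding complex. It also holds 2 genes of Okazaki fragment maturation, 5 of nucleotide supply, 2 of replication-coupled nucleosome assembly and 3 regulators of entry into S phase. Members were chosen by gene symbol. Each gene was read on the probe set that carried that symbol and no other, and where several did, on the one with the highest mean over the 13 arrays. All 51 members were found among 19938 genes with a probe set of 1 symbol.

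Before S phase the origin recognition complex (Orc1 to Orc6), Cdc6 and Cdt1 load the Mcm2 to Mcm7 ring onto DNA, a step called licensing. Cdc45 and the GINS complex then turn the ring into an active helicase, DNA polymerase alpha with primase lays down primers, and polymerases delta and epsilon extend them on the PCNA clamp that replication factor C loads. In the small intestine these genes are used by the dividing stem and progenitor cells of the crypt, whereas the differentiated enterocytes of the villus no longer copy their DNA.

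RNA from picked crypts was hybridised to Affymetrix Mouse Gene 1.0 ST arrays, with 1 array for each sample. Per the strain label all animals carried an Apc mutation together with FP transgenes, so the normal samples share both with the tumours. Normal epithelium lay beside adenomas and was of 2 kinds per the labels, samples of high FP expression (FP-high, n = 4) and of low FP expression (FP-low, n = 6). Adenomas formed the third group (n = 3). The Apc allele, the meaning of FP, the promoter behind the transgenes, the age of the animals and the part of the small intestine are not stated in the labels or design text. The labels do not tie arrays to animals either, so p-values reflect only the spread among these arrays, which may be technical. Crypts were collected with 40 µm capillaries and their RNA was amplified before labelling. Apc restrains Wnt signalling, and its loss starts adenomas in mice of this kind.

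Values are log2 levels, and their precision is limited by the number of arrays. The library labelled FP-high replicate 1 was unlike the remaining 12. Over the 23410 probe sets tested its values spread with an SD of 1.21, when other arrays had 1.89 to 2.10. It correlated with the rest at a median of 0.762, when other arrays did so at 0.943 to 0.968. Of the 51 members 47 lay above the median level of all tested probe sets. For that reason values without it stand beside the list medians and the genes described array by array in comparisons with FP-high samples. Epithelial markers (6 genes) had mean log2 levels of 7.95 to 9.15 in FP-low and 8.55 to 9.08 in adenoma arrays. In FP-high arrays they ran from 6.04 to 9.31, or from 8.50 without FP-high replicate 1.

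FP-high normal epithelium had lower mean levels of most replication genes than FP-low epithelium, but no member passed the test. Lower and higher therefore describe group means in what follows. The FP-high mean was lower for 45 of the 51 members, beside 43.7% of all probe sets. None was called (limma, Benjamini-Hochberg adjusted p under 0.05), nor was any probe set on the array (0%). At an unadjusted p under 0.05, 22 members were lower, or 43.1%, beside 7.95% of all probe sets, and 0 were higher, beside 4.78%. The median member difference was -0.59 on the log2 scale, with a range of -1.56 to 0.21, and the median over all probe sets tested was 0.05. For 8 members (Orc2, Mcm4, Mcm6, Pola1, Prim1, Rfc4, Rpa3 and Tyms) every FP-high array lay below every FP-low array, beside 1.51% of all probe sets. No member was apart in the other direction (0.743% of probe sets).

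The difference was smaller without FP-high replicate 1 and kept its direction. The median was then -0.37 (0.02 over all probe sets), 44 members were lower (beside 45.4% of all probe sets), and 21 were lower at an unadjusted p under 0.05, beside 4.84% of all probe sets. Of the 22 members found with all arrays, 18 were among these 21. Mcm5, Mcm10, Pcna and Rrm1 dropped out, and Orc1, Pole and Rfc5 came in. Orc1 and Pole were dim, with mean log2 levels of 4.15 and 4.36, when the arrays had medians of 4.55 to 4.65. For Pole 3 arrays also held one identical value. The 8 members with groups apart remained so and Pole joined them, beside 1.81% of all probe sets. Bright probe sets as a class also lay lower in FP-high samples. Those above the median level had a median difference of -0.23, or -0.03 when that array was left out. Among them 14.2% were lower at an unadjusted p under 0.05, and 8.05% without FP-high replicate 1. Of the 47 members in that class 22 and 19 were, respectively. Among the 26 brighter members the median difference was -0.90, and -0.67 without that array. Among the 25 dimmer ones it was -0.33 and -0.28. FP-high replicate 3 also decided calls. Without it 4 members were called: Pola1 at -1.61, Mcm4, Rfc3 at -1.85 and Dut at -1.13 (limma adjusted p = 0.0192, 0.0447, 0.0247 and 0.0192). That setting called 0.581% of all probe sets, when the fit of all arrays called 0%.

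Array by array, the FP-high samples differed among themselves. The median deviation of the members from their FP-low means was -1.07, -0.44, -0.14 and -0.68 in FP-high replicates 1 to 4, and it ran from -0.18 to 0.18 over the 6 FP-low arrays. The third FP-high array thus reached the FP-low range, while the other three lay below it. In the same order, 39, 26, 15 and 32 members lay below the FP-low range. Adenoma arrays had median deviations of -0.36, -0.26 and -0.06.

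**Figure D1:**
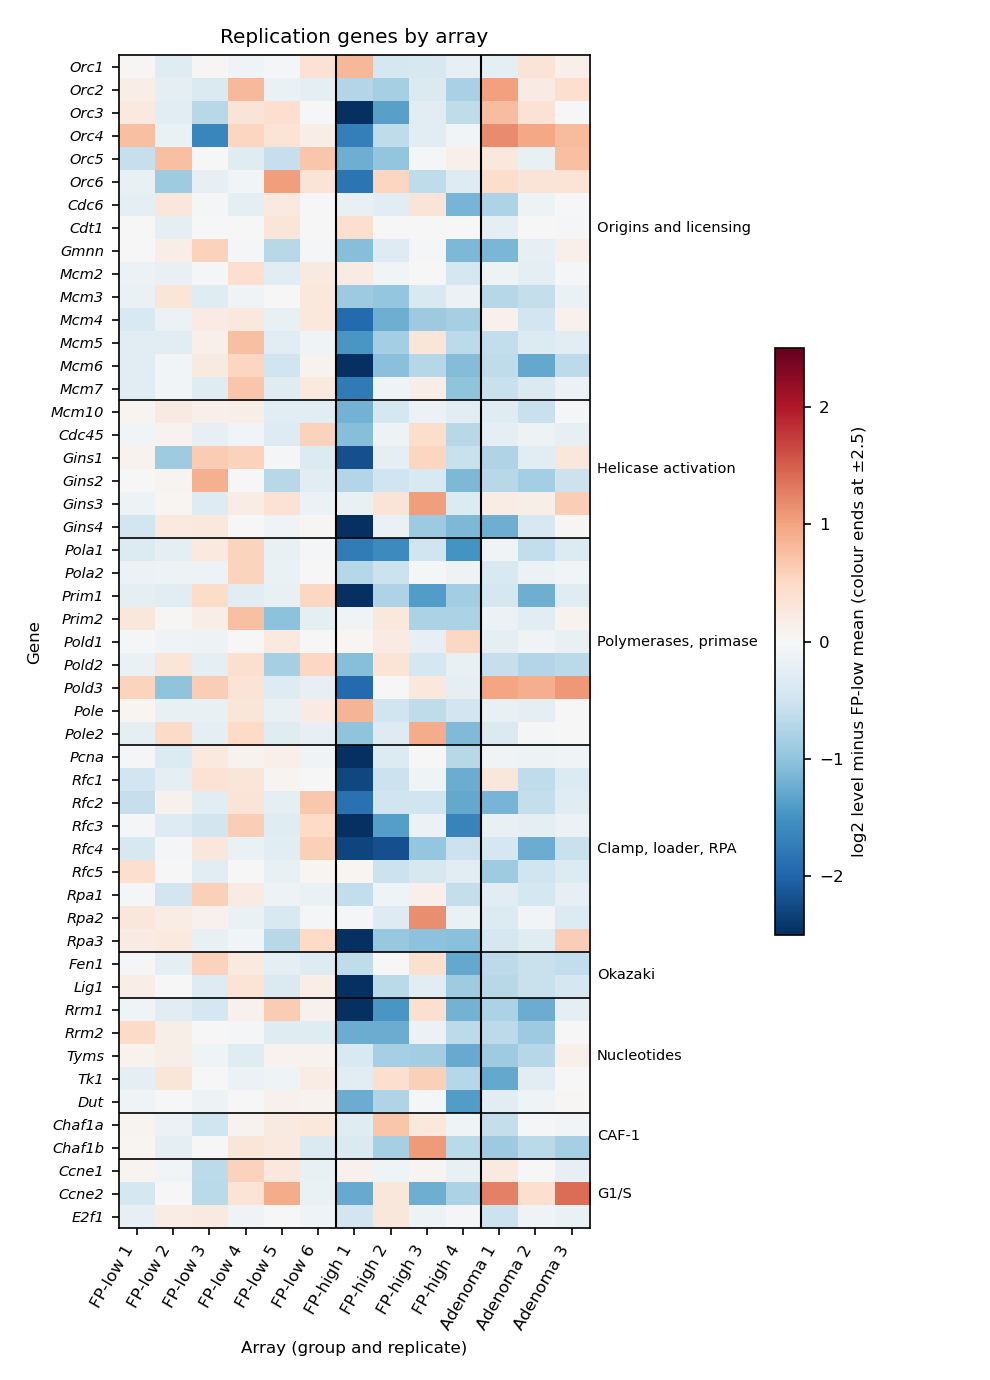
Log2 level of each of the 51 members (vertical axis, grouped by role) on each of the 13 arrays (horizontal axis), shown as the deviation from the gene's FP-low mean. Low values fill most of the columns of FP-high replicates 1, 2 and 4, while FP-high replicate 3 has a median deviation of only -0.14.

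Marker lists of several cell types also had different means in the normal groups, with no marker called. The 4 markers of dividing cells (Mki67, Top2a, Bub1 and Cenpe) all had lower FP-high means, with a median difference of -1.37, or -1.16 without FP-high replicate 1. Their mean log2 level ran from 7.11 to 8.09 in FP-low, from 5.48 to 7.27 in FP-high and from 7.26 to 7.91 in adenoma arrays. All 11 enterocyte markers were higher in FP-high samples, 2 of them at an unadjusted p under 0.05, with a median of 0.89 (1.58 when FP-high replicate 1 was left out). Of all probe sets 43.7% had a lower FP-high mean, and 4.78% were higher at that p. Their mean level was 6.69 to 9.14 in FP-low, 6.79 to 10.6 in FP-high and 7.88 to 8.23 in adenoma arrays. The 6 T cell markers were also all higher, 2 of them at that p, and their median difference of 0.32 became 0.62 when FP-high replicate 1 was left out. Their mean levels were 4.30 to 5.56 in FP-low and 4.96 to 6.52 in FP-high arrays. The 5 Paneth cell markers were all lower, 0 of them at that p (median -1.34, and -0.36 without FP-high replicate 1). The 5 goblet cell markers measured had a median of -1.01, but 0.02 without that array. All 4 B and plasma cell and all 3 endothelial markers were higher, 0 of them at that p. Their mean levels were low, at 3.05 to 4.30 and 3.61 to 4.65 over the normal arrays. The part of these cell types in the member differences was not tested. In such bulk samples, fewer dividing cells and less RNA per dividing cell cannot be told apart.

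**Figure D2:**
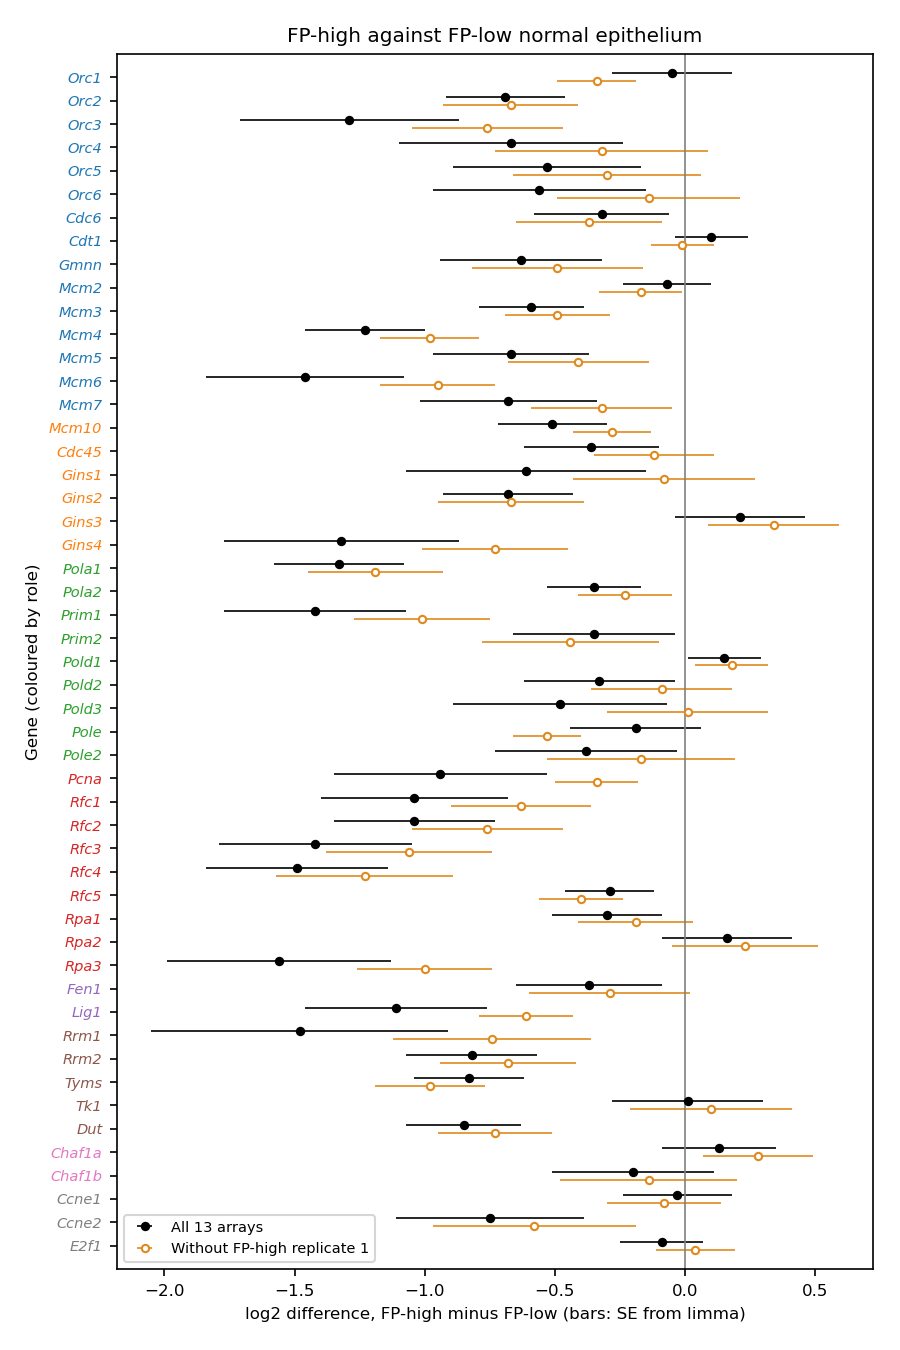
FP-high minus FP-low log2 difference (horizontal axis) of each member (vertical axis, coloured by role) from limma, for all arrays and for those left when FP-high replicate 1 is dropped; bars are standard errors. Of the members 45 lie left of 0 with all arrays and 44 without that array.

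The promoters of the members were also read for the short words bound by E2F factors, which switch on S-phase genes. The windows are those of RefSeq on GRCm38.p6, 250 bases before to 50 after each gene start. The words searched were TTTGGCGC, TTTCCCGC, TTTCGCGC and TTTGCCGC on both strands. An entry was found for 42 members, and 15 of these (35.7%) held a word, 21 words in all. By promoter, 15 of 50 member windows (30%) held one, beside 744 of 32851 windows of the same length (2.26%). Member windows were also richer in G and C, with a median of 61.8% against 52.7%. Members were chosen as replication genes, so these shares describe the list and not the levels on the arrays. There was no entry for Ccne2, Gins1, Gins2, Gins4, Gmnn, Mcm4, Pole, Prim2 and Rfc2. For 6 members whose levels the results turn on, 180 bases are given, from 160 before to 20 after the gene start. Each is printed 5′ to 3′ on the gene's strand with the words in capitals. Mcm6 (chr1:128359686-128359865, minus strand) is shown because it held 3 words, the most of any member, of which the first and second overlap. Pola1 (chrX:93632136-93632315, minus strand) and Rfc3 (chr5:151651189-151651368, minus strand) held words and lay low in FP-high samples. Gins3 (chr8:95633399-95633578, plus strand) held a word and did not lie lower. Prim1 (chr10:128015055-128015234, plus strand) and Rfc4 (chr16:23127711-23127890, minus strand) lay low and held none of these words in the window.
Mcm6: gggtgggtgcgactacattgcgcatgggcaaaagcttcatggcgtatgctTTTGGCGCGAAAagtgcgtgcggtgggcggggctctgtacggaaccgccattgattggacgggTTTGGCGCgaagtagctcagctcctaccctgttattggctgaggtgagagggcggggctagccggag
Pola1: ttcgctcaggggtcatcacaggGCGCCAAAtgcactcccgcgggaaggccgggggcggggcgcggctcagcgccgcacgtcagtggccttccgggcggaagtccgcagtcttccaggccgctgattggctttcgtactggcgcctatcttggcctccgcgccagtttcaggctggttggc
Rfc3: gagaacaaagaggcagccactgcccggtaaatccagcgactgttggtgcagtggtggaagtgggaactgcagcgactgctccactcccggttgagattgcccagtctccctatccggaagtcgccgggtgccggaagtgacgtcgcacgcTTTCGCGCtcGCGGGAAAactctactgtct
Gins3: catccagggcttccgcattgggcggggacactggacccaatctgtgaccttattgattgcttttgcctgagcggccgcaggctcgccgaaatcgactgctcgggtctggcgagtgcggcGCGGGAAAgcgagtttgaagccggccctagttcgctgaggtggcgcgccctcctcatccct
Prim1: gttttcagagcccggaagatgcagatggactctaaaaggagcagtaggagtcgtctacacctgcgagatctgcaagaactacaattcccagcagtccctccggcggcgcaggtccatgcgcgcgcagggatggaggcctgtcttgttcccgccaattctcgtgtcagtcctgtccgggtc
Rfc4: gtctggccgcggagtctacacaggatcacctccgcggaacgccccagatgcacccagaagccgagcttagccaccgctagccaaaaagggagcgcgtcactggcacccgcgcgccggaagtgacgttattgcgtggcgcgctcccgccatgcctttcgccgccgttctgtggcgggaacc

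Members with a word were set beside those without one. In FP-high minus FP-low the median difference was -0.59 over the 15 members with a word, -0.51 over the 27 with an entry and no word, and -0.68 over the 9 without an entry. Of these, 7, 11 and 4 were lower at an unadjusted p under 0.05. Leaving out FP-high replicate 1 gave medians of -0.37, -0.29 and -0.58, and 7, 9 and 5 were lower at that p. A match describes letters in the window and is not a measured binding site.

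**Figure D3:**
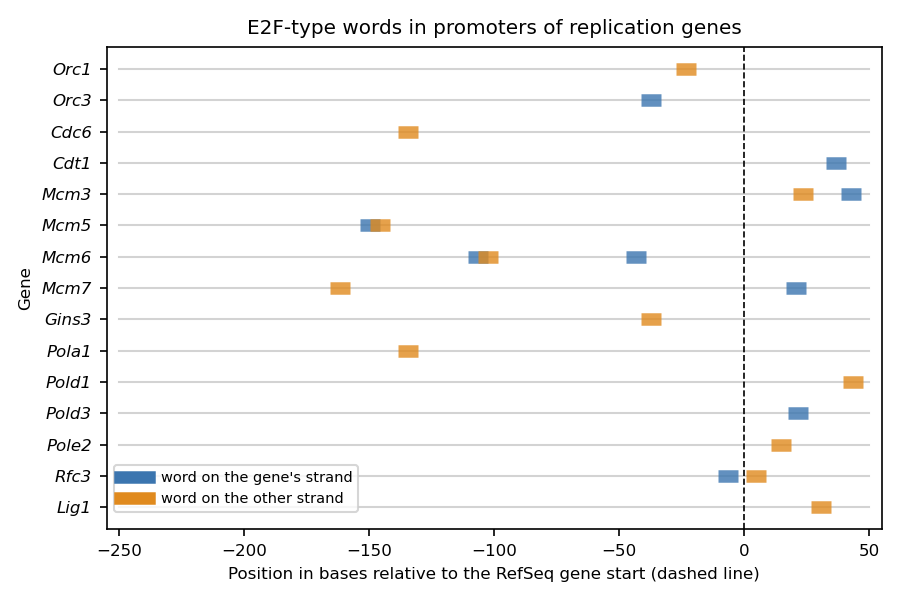
Position of E2F-type words (boxes, coloured by strand) in the promoter windows of the 15 members that hold one (vertical axis), in bases relative to the gene start (horizontal axis). The words of Mcm5 overlap each other, as do a pair of the 3 words of Mcm6.

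Among origin recognition and licensing genes, 14 of 15 were lower in FP-high samples, 6 of them at an unadjusted p under 0.05, and the median was -0.63 (-0.37 without FP-high replicate 1). The Mcm2 to Mcm7 ring was lower in 6 of 6 members, at a median of -0.68 (-0.45 without FP-high replicate 1). So was the origin recognition complex, at a median of -0.62, which that array moved by more, to -0.33 when left out. Mcm4, a subunit of the ring, had the smallest p of the group. Its log2 level was 4.63, 5.37, 5.67 and 5.76 in FP-high samples and 6.20 to 6.84 (median 6.61) in FP-low samples. All 4 FP-high arrays lay below the lowest FP-low array. The difference was -1.23 ± 0.23 (SE), a level 0.427 times that of FP-low samples (limma adjusted p = 0.140), and -0.98 ± 0.19 with FP-high replicate 1 left out. Mcm6, a further ring subunit with 3 promoter words, was at 5.27, 7.23, 7.56 and 7.19 in FP-high samples and at 7.78 to 8.81 (median 8.28) in FP-low samples. The groups did not overlap, and FP-high replicate 1 lay far below the other FP-high arrays. Its difference of -1.46 ± 0.38 shrank to -0.95 ± 0.22 without that array (limma adjusted p = 0.232 with all arrays). Orc1, an ATPase subunit of the origin complex, had the smallest difference of these genes relative to its error, at -0.05 ± 0.23. FP-high replicate 1 read 4.97 for it and the others 3.73, 3.75 and 3.94, against 3.85 to 4.50 in FP-low samples. Leaving that array out gave an Orc1 difference of -0.34 ± 0.15. Cdt1 could not be read closely, because 7 of the 13 arrays held one identical value, 4.86.

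Of the 6 helicase activation genes 5 were lower and 3 passed an unadjusted p under 0.05, with a median of -0.56 (-0.20 when FP-high replicate 1 was left out). Gins4, a GINS subunit, was at 4.90, 7.81, 7.08 and 6.87 in FP-high samples and at 7.53 to 8.25 (median 8.0) in FP-low samples. FP-high replicate 2 lay within the FP-low range and the other three below it. The difference was -1.32 ± 0.45, and -0.73 ± 0.28 without FP-high replicate 1. Its partner Gins3 lay on the other side, at 0.21 ± 0.25, with FP-high levels of 4.50, 5.02, 5.73 and 4.34 around the FP-low range of 4.37 to 5.04 (0.34 without FP-high replicate 1). Gins2 lay between these, at -0.68 ± 0.25. Whether subunits of this complex differ from each other was not tested.

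Polymerase and primase genes were lower in 8 of 9 cases, but 2 passed an unadjusted p under 0.05, and the median was -0.35. Leaving out FP-high replicate 1 gave 7 of 9 lower, 3 at that p (Pole came in), and -0.23. The pair that passed with all arrays belongs to the primer-making complex. Pola1, the catalytic subunit of polymerase alpha, was at 5.11, 5.28, 6.37 and 5.37 in FP-high samples and at 6.52 to 7.43 (median 6.75) in FP-low samples. FP-high replicate 3 came closest to the FP-low arrays without reaching them. The difference of -1.33 ± 0.25 corresponds to 0.397 times the FP-low level (limma adjusted p = 0.140), the smallest p of any member with all arrays. It was -1.19 ± 0.26 without FP-high replicate 1. Prim1, the catalytic primase subunit, was at 5.38, 7.27, 6.65 and 7.17 in FP-high samples and at 7.77 to 8.56 (median 7.83) in FP-low samples. Its groups were apart as well, and its difference was -1.42 ± 0.35, or -1.01 ± 0.26 without FP-high replicate 1. Prim2, the other primase subunit, had overlapping groups and a difference of -0.35 ± 0.31. Pole, the catalytic subunit of polymerase epsilon, differed by -0.19 ± 0.25 with all arrays. FP-high replicate 1 read 5.29 for Pole, and the other FP-high arrays read 3.95, 3.82 and 3.97, all below the FP-low range of 4.25 to 4.75. Without FP-high replicate 1 the Pole difference was -0.53 ± 0.13.

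The clamp, clamp loader and single-strand binding genes had a median of -1.04, the lowest of the role groups with all arrays. Without FP-high replicate 1 it was -0.63 and that of nucleotide supply was lower, -0.73. Here 8 of 9 were lower and 6 passed an unadjusted p under 0.05. All 5 subunits of replication factor C, the clamp loader, were lower. Rfc4 was at 4.60, 4.70, 5.93 and 6.35 in FP-high samples and at 6.49 to 7.49 (median 6.78) in FP-low samples. Its groups were apart, by a narrow margin in FP-high replicate 4. The difference was -1.49 ± 0.35 (limma adjusted p = 0.195), and -1.23 ± 0.34 without FP-high replicate 1. Rfc3 was at 4.31, 5.44, 6.67 and 5.14 in FP-high samples and at 6.36 to 7.43 (median 6.64) in FP-low samples. FP-high replicate 3 lay inside the FP-low range, and the difference was -1.42 ± 0.37 (-1.06 ± 0.32 without FP-high replicate 1). Rfc2, which had no promoter entry, was at -1.04 ± 0.31, and at -0.76 ± 0.29 without that array. The median of the 5 subunits was -1.04, and -0.76 without it.

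Replication protein A coats the single strands that the helicase exposes. Rpa3, its small subunit, was at 5.72, 8.03, 7.94 and 7.93 in FP-high samples and at 8.28 to 9.47 (median 9.04) in FP-low samples. The groups were apart and 3 FP-high arrays lay close together. Its difference of -1.56 ± 0.43 was the largest in size of any member with all arrays, and it was -1.0 ± 0.26 without FP-high replicate 1. A further Rpa3 probe set gave -0.84 ± 0.23. Rpa1 and Rpa2, the larger subunits, differed by -0.30 ± 0.21 and 0.16 ± 0.25, with overlapping groups. Pcna, chosen after its values were seen because it is the clamp itself, was at 8.19 in FP-high replicate 1 and at 10.61, 10.94 and 10.25 in the others. FP-low samples ran from 10.61 to 11.19, so the Pcna difference of -0.94 ± 0.41 rested mostly on 1 array, and it was -0.34 ± 0.16 without it.

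Nucleotide supply genes were lower in 4 of 5 cases, each at an unadjusted p under 0.05, with a median of -0.83 (-0.73 when FP-high replicate 1 was left out). Tyms, thymidylate synthase, was at 6.55, 6.11, 6.08 and 5.68 in FP-high samples and at 6.63 to 7.09 (median 7.02) in FP-low samples. Here FP-high replicate 1 was the closest to the FP-low arrays, and the groups did not overlap. The difference was -0.83 ± 0.21 (limma adjusted p = 0.226), and it grew to -0.98 ± 0.21 without that array. After quantile normalization of the arrays it shrank to -0.17 ± 0.47 (limma adjusted p = 0.874). Dut, which removes dUTP and yields the precursor of dTTP, was at 5.21, 5.69, 6.42 and 5.05 in FP-high samples. FP-low samples held a narrow band of 6.33 to 6.56 (median 6.45), and FP-high replicate 3 lay within it. The Dut difference was -0.85 ± 0.22, or -0.73 ± 0.22 without FP-high replicate 1. Rrm2, the small subunit of ribonucleotide reductase, was at -0.82 ± 0.25. Tk1, the salvage thymidine kinase, was the exception at 0.01 ± 0.29 (0.10 ± 0.31 without FP-high replicate 1), with FP-high levels of 6.10, 6.79, 6.96 and 5.67 on both sides of the FP-low range of 6.13 to 6.68. A further Tk1 probe set gave -0.23 ± 0.22.

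In the remaining roles Lig1 differed most. Lig1, the ligase that seals Okazaki fragments, was at 4.08, 6.01, 6.40 and 5.78 in FP-high samples and at 6.32 to 7.01 (median 6.76) in FP-low samples. FP-high replicates 1, 2 and 4 lay below the FP-low range, and the difference was -1.11 ± 0.35, or -0.61 ± 0.18 without FP-high replicate 1. Fen1, the flap nuclease of the same step, was at -0.37 ± 0.28. Neither subunit of the chromatin assembly factor, which places histones on new DNA, passed an unadjusted p under 0.05, with Chaf1a at 0.13 ± 0.22 and Chaf1b at -0.20 ± 0.31. None of the regulators of S-phase entry passed it either. Ccne2, a cyclin E, was at -0.75 ± 0.36, and Ccne1, the other cyclin E, at -0.03 ± 0.21.

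**Figure D4:**
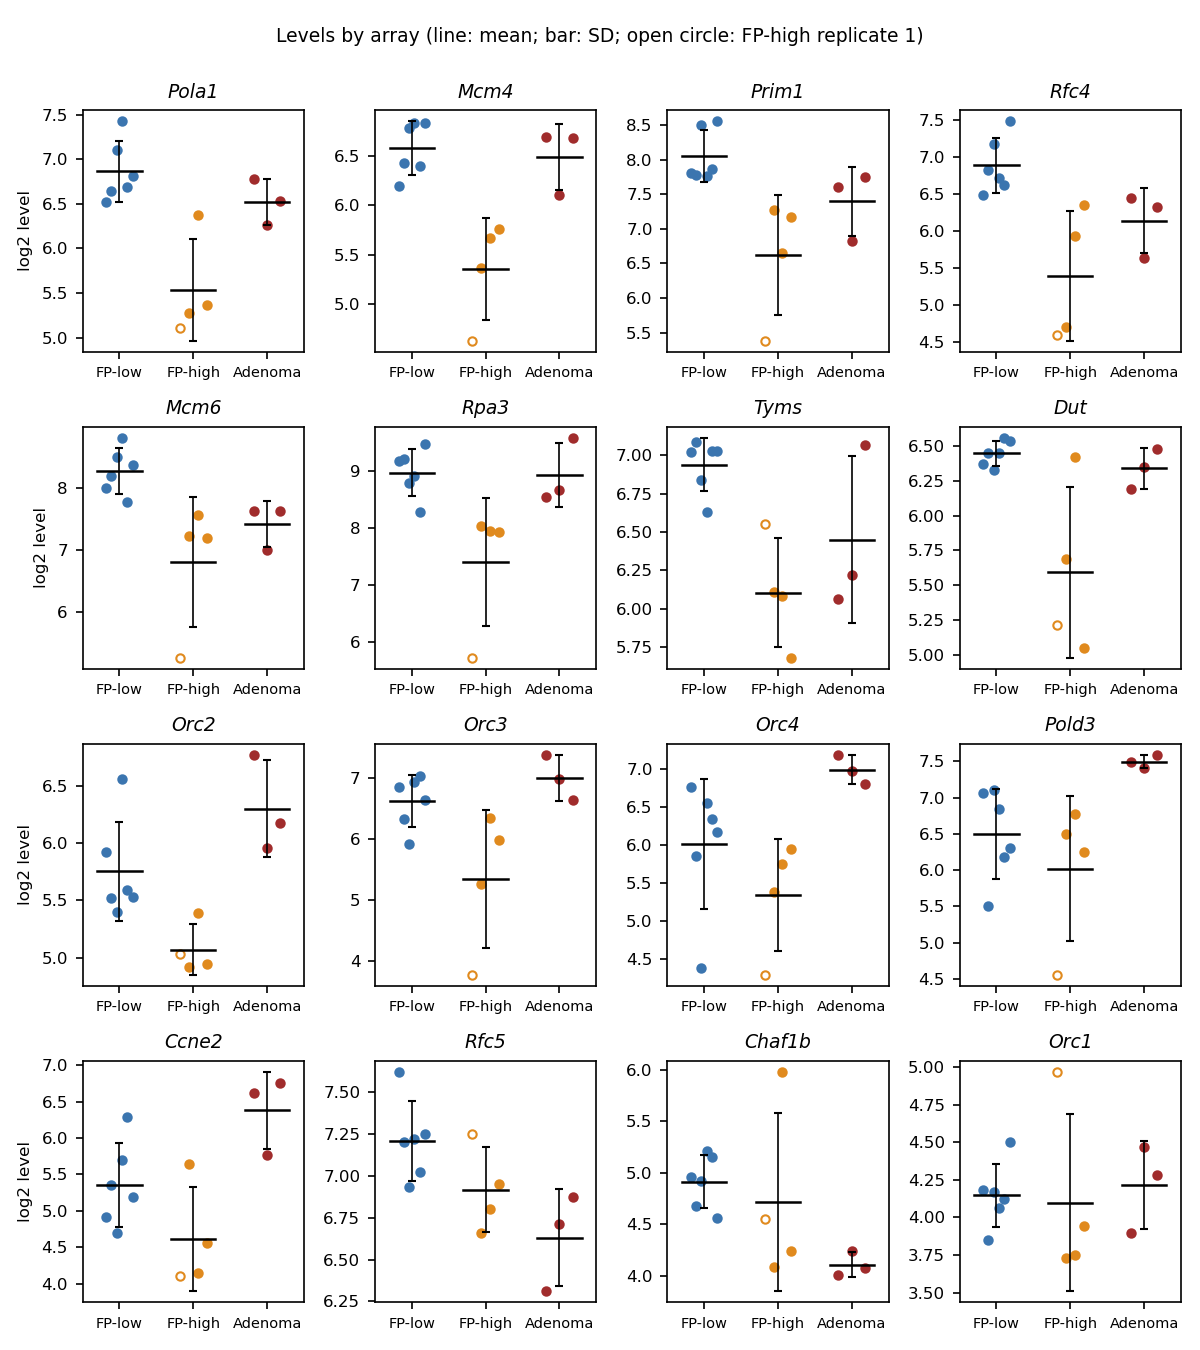
Log2 level (vertical axis) of 16 members, 1 panel each, on every array by group (horizontal axis); points are arrays (open circle: FP-high replicate 1), lines are group means and bars are SD. For Pola1, Mcm4, Rfc4, Prim1, Mcm6 and Tyms the FP-high points lie below all FP-low points.

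Other genes of the pathway were counted in the same way. Of 86 such genes 83 were measured, and 73 of these were lower in FP-high samples, beside 43.7% of all probe sets. At an unadjusted p under 0.05, 29 were lower (34.9%, beside 7.95%) and 2 higher (2.41%, beside 4.78%), and none was called (limma). The median of the 83 was -0.60, and -0.28 without FP-high replicate 1. There 67 were lower (beside 45.4% of all probe sets), 21 of them at that p (25.3%, beside 4.84%). With all arrays, other replication genes contributed 14 of 34 to those lower at that p, other nucleotide genes 7 of 21, and other regulators of S-phase entry 8 of 28. The same counts were 14, 2 and 5 without FP-high replicate 1, so the nucleotide genes at that p rested largely on that array. The 4 with the smallest p were replication genes. Wdhd1, which ties polymerase alpha to the helicase, was at -1.59 ± 0.32, and Dbf4, the activator of the Cdc7 kinase that fires origins, at -1.56 ± 0.32. Top2a, the topoisomerase of dividing cells, was at -1.51 ± 0.35, and Atad5, which helps to unload the clamp, at -0.93 ± 0.23.

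Adenomas had slightly lower means than FP-low epithelium for most replication genes, and higher means for the Orc genes, Pold3 and Ccne2, with no member past the test. Of the 51 members 41 were lower in adenomas, when 61% of all probe sets were, and the median was -0.25, beside -0.06 over all probe sets. No member was called by limma, whereas 0.551% of probe sets were. At an unadjusted p under 0.05, 4 members were lower and 2 higher, beside 3.2% and 4.24% of probe sets. Groups were apart in 8 members on the low side (Mcm5, Mcm6, Prim1, Rfc4, Rfc5, Fen1, Lig1 and Chaf1b), beside 5.64% of probe sets, and in Orc4 and Pold3 on the high side, beside 3.67%. The gap between the highest adenoma and lowest FP-low array was narrow in Mcm5 (5.79 and 5.80) and Prim1 (7.75 and 7.77). It was also narrow in Rfc4 (6.45 and 6.49) and Rfc5 (6.87 and 6.93). The spread of each probe set is estimated over all 3 groups, and without FP-high replicate 1, 11 members were lower at that p, beside 8.07% of probe sets. Without adenoma replicate 1 it was 0.

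Many subunits that work at the fork had lower means in adenomas than in FP-low epithelium. Rfc5, a clamp loader subunit, was at 6.31, 6.71 and 6.87 in adenomas and at 6.93 to 7.62 (median 7.21) in FP-low samples. All 3 adenomas lay below all 6 FP-low arrays. The difference was -0.57 ± 0.19 (limma adjusted p = 0.364). Chaf1b, a subunit of the chromatin assembly factor, was at 4.01, 4.24 and 4.08 in adenomas and at 4.56 to 5.21 (median 4.94) in FP-low samples. It was apart in the same way, at -0.80 ± 0.33. Gins2 differed by -0.70 ± 0.28 and Mcm3, a ring subunit, by -0.49 ± 0.21, both with overlapping groups. All 6 Mcm2 to Mcm7 genes were lower, with a median of -0.38, as were all 5 replication factor C genes, with a median of -0.57. Fen1 was at 5.32, 5.42 and 5.36 in adenomas, below the FP-low range of 5.66 to 6.55, with a difference of -0.61 ± 0.31. The 5 nucleotide supply genes were lower too, with a median of -0.51, and none passed an unadjusted p under 0.05.

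The origin recognition complex, Pold3 and Ccne2 lay on the other side. As a count this side did not stand out from the array. At an unadjusted p under 0.05, 3.92% of members were higher, beside 4.24% of all probe sets. Groups were apart on the high side in 3.92% of members, beside 3.67%. All 6 Orc genes had higher means in adenomas than in FP-low samples, from 0.07 to 0.98 with a median of 0.38, and none passed an unadjusted p under 0.05. Orc4 was at 7.19, 6.98 and 6.81 in adenomas and at 4.39 to 6.76 (median 6.26) in FP-low samples. The groups were apart by a small gap, and the FP-low arrays spread widely, with a difference of 0.98 ± 0.47. Pold3, an accessory subunit of polymerase delta, was at 7.49, 7.41 and 7.59 in adenomas and at 5.50 to 7.11 (median 6.57) in FP-low samples. Every adenoma exceeded every normal array. The difference was 1.00 ± 0.45 (limma adjusted p = 0.656). Its partner Pold2, a further accessory subunit, was at -0.66 ± 0.32. Ccne2 was at 6.62, 5.77 and 6.75 in adenomas and at 4.69 to 6.29 (median 5.27) in FP-low samples. Adenoma replicates 1 and 3 lay above that range and replicate 2 inside it, with a difference of 1.02 ± 0.40 (adjusted p = 0.524). Ccne1 differed by 0.02 ± 0.23.

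Against FP-high epithelium, adenomas had higher means for 38 of the 51 members, when 40.4% of all probe sets were higher. The median was 0.26, beside -0.11 over all probe sets, and it was 0.07 without FP-high replicate 1, where 33 members were higher (beside 37.5%). No member was called by limma (0.765% of probe sets were). At an unadjusted p under 0.05, 10 members were higher, beside 8.38% of probe sets, and 0 lower, beside 7.36%. For 7 members (Orc2, Orc3, Orc4, Mcm4, Pold3, Rpa3 and Ccne2) all adenomas exceeded all FP-high arrays, beside 6.74% of probe sets. Without FP-high replicate 1, 12 members were higher at that p, beside 7.35% of probe sets. With the replicate number as a block, 1 member was lower and 11 were higher at that p, beside 3.77% and 7.89% of probe sets. The comparisons share arrays with each other, so the values of each are given side by side and no overlap between them is counted.

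Orc2 had the smallest p here, and Orc3 and Orc4 were among the 10 smallest. Orc2 was at 6.77, 5.96 and 6.17 in adenomas, at 5.03, 4.92, 5.39 and 4.94 in FP-high and at 5.40 to 6.56 (median 5.56) in FP-low samples. Adenomas and FP-high samples were apart, and FP-low samples lay between them with overlap on the adenoma side. The adenoma level was 2.35 times that of FP-high samples, a difference of 1.23 ± 0.28 (limma adjusted p = 0.0658), and 1.22 ± 0.30 without FP-high replicate 1. It was called when FP-low replicate 4 was left out (limma adjusted p = 0.026). Orc3 was at 7.39, 6.99 and 6.64 in adenomas and at 3.77, 5.26, 6.35 and 5.98 in FP-high samples. Every adenoma was higher, and the lowest value was again that of FP-high replicate 1. The difference of 1.67 ± 0.50 was 1.14 ± 0.33 without it. Orc4 differed by 1.64 ± 0.51, or 1.30 ± 0.48 without that array. Over Orc1 to Orc6 all 6 were higher, with a median of 1.08, and 0.86 when FP-high replicate 1 was left out. Together these subunits bind the origins at which replication starts.

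Mcm4 and Ccne2 came next after Orc2 by p. Ccne2 was at 4.10, 5.64, 4.14 and 4.56 in FP-high samples, all below the lowest adenoma at 5.77. Its difference was 1.77 ± 0.43, 3.41 times (limma adjusted p = 0.0876), and 1.60 ± 0.45 with FP-high replicate 1 left out. Ccne2 was called when FP-high replicate 2, its highest FP-high array, was left out (limma adjusted p = 0.0378). Mcm4 was at 6.69, 6.11 and 6.68 in adenomas, above all FP-high arrays. Adenoma replicates 1 and 3 lay inside the FP-low range and replicate 2 just below it. It was 1.14 ± 0.27 above FP-high samples (limma adjusted p = 0.0869), 0.89 ± 0.22 without FP-high replicate 1, and -0.09 from FP-low samples. Pola1 differed from FP-high samples by 0.99 ± 0.30, Pold3 by 1.48 ± 0.49, Rpa3 by 1.53 ± 0.50, Dut by 0.75 ± 0.26 and Rfc3 by 1.23 ± 0.44. These differences became, without FP-high replicate 1, 0.85, 0.99, 0.97, 0.62 and 0.87 in the same order, so that of Rpa3 shrank most. With all arrays the further Rpa3 probe set gave 0.99 ± 0.28. Pola1, Dut and Rfc3 were called without FP-high replicate 3, at 1.27, 1.02 and 1.66 (limma adjusted p = 0.0299, 0.0217 and 0.0378). That setting called 1.2% of all probe sets. Pola1 is X-linked, and the arrays differed in Xist, the RNA of the silenced X chromosome. Adenomas read 8.88 to 9.71 for Xist. Among normal arrays FP-low replicate 6 read 8.74, FP-high replicate 4 read 8.64 and the rest at most 3.61. Pola1 read 6.81 and 5.37 on those normal arrays. All adenomas were thus high in Xist and most normal arrays were not. For every member, adenoma comparisons therefore largely set arrays apart by Xist as well, and the part of each was not tested. Members that were level or lower in adenomas against FP-high samples included Chaf1b (-0.60 ± 0.36), Tk1 (-0.52 ± 0.34), Gins2 (-0.01 ± 0.30), Rpa1 (-0.01 ± 0.25) and Cdc6 (0.02 ± 0.30). On the further Tk1 probe set the difference was -0.18 ± 0.25.

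**Figure D5:**
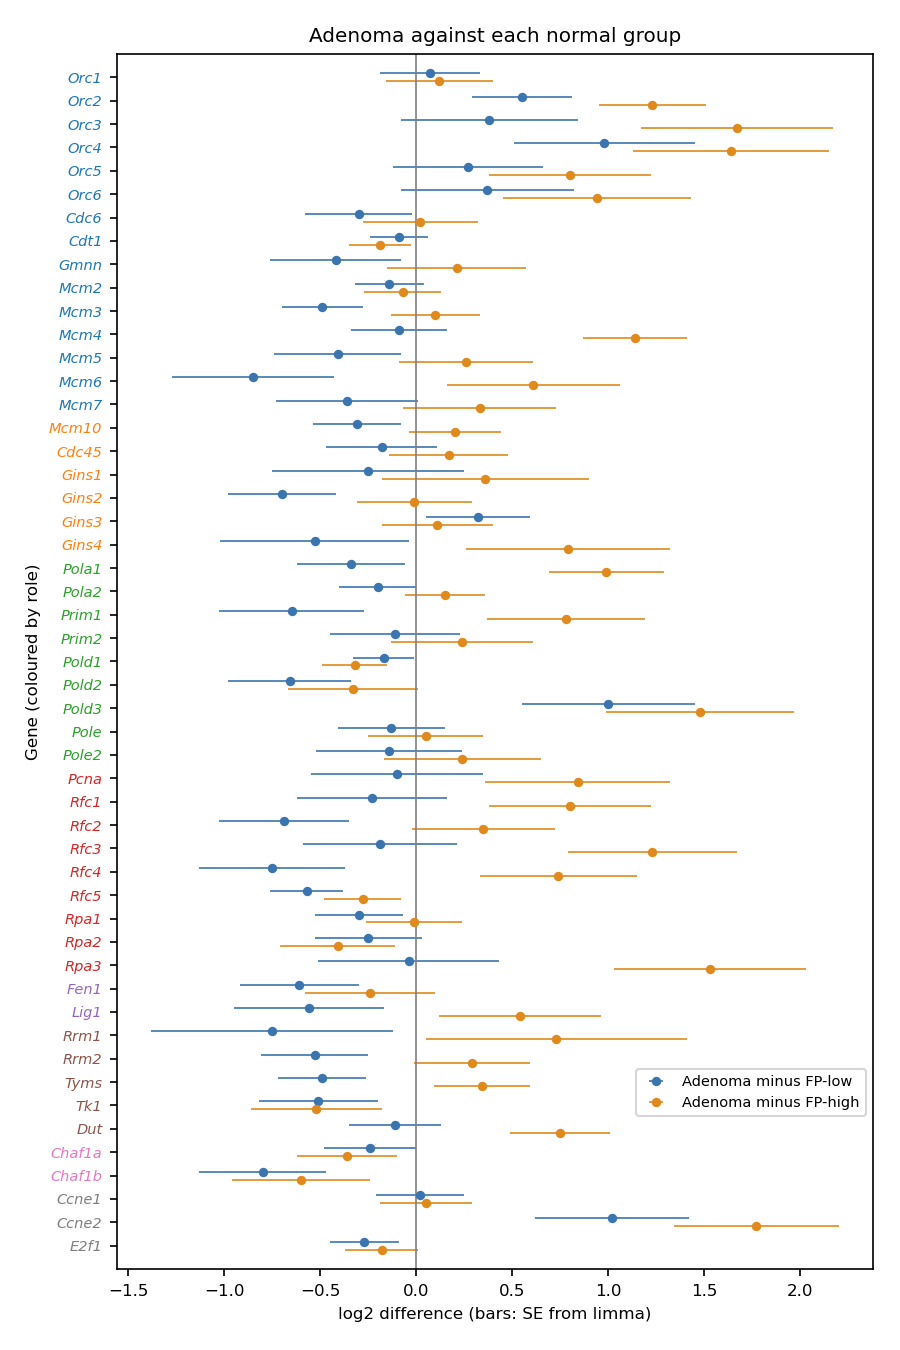
Adenoma minus FP-low and adenoma minus FP-high log2 differences (horizontal axis) of each member (vertical axis, coloured by role) from limma, with standard errors as bars. The Orc genes, Pold3 and Ccne2 lie right of 0 in both, while Mcm4, Rfc3 and Rpa3 lie near 0 against FP-low and right of it against FP-high.

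The order of the 3 group means summarised these patterns. For 28 members (54.9%, beside 15.2% of all probe sets) the FP-high mean was lowest, the adenoma mean intermediate and the FP-low mean highest. These included 5 of the 6 ring genes, 4 of the 5 replication factor C genes, Pola1, Prim1, Lig1, Tyms and Dut. For 9 members (17.6%, beside 17%) the adenoma mean was highest and the FP-high mean lowest. These were Orc1 to Orc6, Pold3, Ccne1 and Ccne2. For 8 members (15.7%, beside 11.5%) the adenoma mean was lowest and the FP-low mean highest, among them Gins2, Pold2, Rfc5, Fen1 and Chaf1b. For 5 members (9.8%, beside 34.2%) the FP-high mean was highest and the adenoma mean lowest, namely Cdt1, Pold1, Rpa2, Tk1 and Chaf1a. The further Tk1 probe set did not share this order, at -0.23 in FP-high minus FP-low. Gins3 alone (1.96%, beside 8.22%) had the order FP-low, FP-high, adenoma from low to high. Without FP-high replicate 1 the first of these orders held 24 members (47.1%, beside 10.9%), the second 8 (15.7%, beside 14.9%) and the third 12 (23.5%, beside 19.7%). Pold3 left the second, and Mcm7, Mcm10, Cdc45, Gins1 and Rrm1 moved from the first to the third. Neighbouring means in these orders can lie within a standard error, as for Ccne1, at -0.03 ± 0.21 between the normal groups and 0.02 ± 0.23 between adenomas and FP-low samples.

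Set against the average of both normal groups, adenomas had a member median near 0. There were 29 members lower, beside 61.9% of all probe sets, and 22 higher, with a median of -0.01, beside -0.09 over all probe sets. Probe sets above the median level had a median of 0.05. Leaving out FP-high replicate 1 moved the member median to -0.12. None was called by limma, when 0.91% of probe sets were, and 2 members were lower and 6 higher at an unadjusted p under 0.05, beside 4.59% and 5.98%. Orc4 and Pold3 were apart from all 10 normal arrays, on the high side, beside 1.93% of probe sets. The smallest p-values belonged to Ccne2 at 1.39 ± 0.37, Orc2 at 0.89 ± 0.24, Orc4 at 1.31 ± 0.44 and Pold3 at 1.24 ± 0.42. Orc2 was called without FP-low replicate 4 (limma adjusted p = 0.0419). Markers of other cell types differed in part. The 6 stromal markers had mean levels of 4.89 to 5.67 in adenomas, 4.74 to 5.07 in FP-low and 4.77 to 5.09 in FP-high arrays, with 3 lower and 3 higher in adenomas than in normal arrays and a median of 0.01 (4 lower, 2 higher and -0.06 against FP-low samples). Of these Dcn, a matrix protein of fibroblasts, was called at 2.36 ± 0.45 (limma adjusted p = 0.0277). The 5 Paneth cell markers were lower than in FP-low samples in 5 of 5 cases, with a median of -2.37. Markers of dividing cells had a median of -0.20 against FP-low and 1.12 against FP-high samples (0.74 without FP-high replicate 1). Their part in the member differences was not tested.

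Of the other pathway genes, 59 of 83 were lower in adenomas than in FP-low samples, 5 of them at an unadjusted p under 0.05, with 1 higher and none called (limma). These shares (6.02% and 1.2% at that p) stand beside 61% of all probe sets lower, and 3.2% lower and 4.24% higher at that p. Shmt2, the mitochondrial enzyme that feeds carbon units from serine into nucleotide synthesis, had the smallest p, at -0.82 ± 0.23 (limma adjusted p = 0.212). Mthfd1 and Atic, enzymes of folate and purine synthesis, were at -0.79 and -1.04. Against FP-high samples 68 of 83 were higher, beside 40.4% of all probe sets. At that p 12 (14.5%) were higher and 3 (3.61%) lower, beside 8.38% and 7.36%, and the median was 0.38. Without FP-high replicate 1, 52 were higher, 7 of them at that p (8.43%, beside 7.35%), and the median fell to 0.19. E2f5, a repressor-type E2F, was 1.58 ± 0.35 higher than in FP-high samples (limma adjusted p = 0.0648). Myc, a Wnt target and growth regulator, was at 1.25 ± 0.39 in that comparison, and 0.85 without FP-high replicate 1.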

How the data were processed

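RNA was measured in 13 samples on 1-colour arrays. The authors deposited log2 levels of 35556 probe sets, made with Affymetrix Expression Console and Transcriptome Analysis Console per the submitters' processing notes. For program versions, background correction and normalization the entry is: not given in the sources used here. Their range is that of log2 data. No sample column was left out (0 unused). Probe sets were named from the platform annotation: 23410 carried a symbol and were tested, 21789 of them exactly 1. The members and lists were chosen with earlier results of these data known.

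The 3 groups were fitted together with limma 3.58.1 in R 4.3.3 (lmFit and eBayes, two-sided, 10 residual degrees of freedom, no covariate), for 4 comparisons. The Benjamini-Hochberg adjustment ran over these 23410 probe sets, with a call at an adjusted p under 0.05. Lists are described by counts and medians beside the same over all probe sets, with no test. Fold changes come from differences of mean log2 level. Genes to name were drawn by rule. In each role and comparison these were the members of largest and smallest absolute moderated statistic. In each comparison they were also the 10 members and the 4 other pathway genes of smallest p. Not every gene that the rule gives is described in each comparison. Other pathway genes named for adenomas are a selection. The fitting code was tested on simulated data. Same-numbered FP-high and adenoma arrays deviated together from their group means (r = 0.233, 0.102 and 0.220, all over 0.1), so the block is given there. Xist read 3.61, 3.05 and 2.65 in FP-high replicates 1 to 3, and 9.71, 8.88 and 8.98 in adenoma replicates 1 to 3. The replicate number is therefore not read as a shared animal. For pairs that include an FP-low array r was -0.361 to 0.178. Alternatives were quantile normalization, array weights, filters on dim probe sets, trend and robust options, the replicate block, all probe sets of a gene, only the groups compared, all rows of the deposited table, and each array left out.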

Additional observations from a re-analysis of the deposited data

Results flagged for a closer look

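In 7 cases the highest or lowest array of a group stood far from the rest of its group by Dixon's test at the 95% level, which flags about 1 in 20 groups by chance. There were 51 members tested in each normal group, with 2 cases among FP-low and 5 among FP-high samples. All 5 of the latter concerned FP-high replicate 1. On that array Mcm6 was at 5.27 (other FP-high arrays 7.19 to 7.56) and Rpa3 at 5.72 (7.93 to 8.03), while Orc1 was at 4.97 (3.73 to 3.94), Pole at 5.29 (3.82 to 3.97) and Cdt1 at 5.29 (4.86 to 4.88). In FP-low samples Pola2 was at 5.43 in replicate 4 (others 4.71 to 4.88) and Pold1 at 5.60 in replicate 5 (others 5.24 to 5.37).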

How the results depend on the processing

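The 10 members of smallest p in each comparison gave 870 values under the alternatives. Of these 0 changed sign and 15 newly passed the threshold, when no member was called in the main fit. These members were picked by p in these same data, so their steady sign says nothing of the other members. In FP-high minus FP-low the median ran from -0.73 (without FP-high replicate 3) to -0.37 (without FP-high replicate 1), members lower at an unadjusted p under 0.05 from 19 to 30, and calls from 0 to 4. The 4 calls (Pola1, Mcm4, Rfc3 and Dut) appeared without FP-high replicate 3, beside 0.581% of all probe sets. The 30 lower members came with the same array left out, beside 12.2%. In adenoma minus FP-low, leaving out 1 array gave medians of -0.33 to -0.14 and 0 calls throughout. Members lower at that p ran from 0 (without adenoma replicate 1, beside 1.47%) to 11 (without FP-high replicate 1, beside 8.07%). In adenoma minus FP-high, leaving out 1 array gave medians of 0.07 to 0.51 and 0 to 3 calls (3 without FP-high replicate 3, beside 1.2%). At that p 0 to 1 were lower, beside 3.65% to 12.5%. Members higher at that p ran from 9 (without adenoma replicate 3, beside 6.41%) to 14 (without FP-high replicate 3, beside 10.7%). Against both normal groups, leaving out 1 array gave medians of -0.12 to 0.05 and 0 to 1 calls (Orc2 without FP-low replicate 4, beside 0.696%). There 0 to 4 were lower at that p (4 without FP-high replicate 4, beside 4.46%). Array weights called 2 members in adenoma minus FP-low (Mcm6 and Rfc5), beside 3.71% of probe sets, with 15 lower at that p, beside 11%. In adenoma minus FP-high they called 1 (Orc3), beside 2.54%, with 3 lower, beside 11.6%, and 12 higher, beside 8.94%. Against both normal groups they called 2 (Orc4 and Pold3), beside 4.93%, with 5 lower, beside 13.3%. With only the groups compared, adenoma minus FP-low had 1 call (Chaf1b), beside 1.47%, and 14 lower, beside 8.4%. That setting was not run against both normal groups, which use the same arrays. Quantile normalization gave 2 lower in adenoma minus FP-high (beside 6.17%) and 1 against both normal groups (beside 4.32%). The trend and robust options gave 1 in the latter (beside 5.04%). The replicate block gave 1 lower in adenoma minus FP-high (beside 3.77%), a median of -0.61 in FP-high minus FP-low, and no call in any comparison. A filter on dim probe sets with FP-high replicate 1 left out, chosen after seeing the data, gave 10 lower in adenoma minus FP-low. That stood beside 9.96% of the probe sets kept. The cause of these shifts was not tested, beyond the smaller number of arrays where some were left out. With 3 adenomas and 4 FP-high samples, members called or not depend on few arrays.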
